A study of Mus musculus with 6 samples.

Results

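The genes of 8 proteins used to recognise mouse hematopoietic stem cells were followed: the receptor tyrosine kinases Kit and Tek, the protein C receptor Procr, the sialomucin Cd34, the SLAM receptors Slamf1 and Cd48, the Ly6 family protein Ly6a and the exchange factor Fgd5. They were taken as a fixed list of 9 names, in which Cd150 is another name of Slamf1, and make up 8 of the 21883 protein-coding genes on the main chromosomes of the RefSeq table for GRCm38.p6. Each gene was given a window of its span plus 50 kb on each side, shortened where the next protein-coding gene began. All peaks overlapping a window were counted in each library. The mark is acetylation of histone H3 at lysine 27 (H3K27ac). The authors profiled it with CUT&RUN, in which an antibody-directed nuclease releases marked fragments, on stem cells of murine marrow. Wild-type mice gave 3 libraries, and 3 came from animals lacking Ppp2ca (a catalytic subunit gene of protein phosphatase 2A), here called knockout. The sources used here do not give the deleted part of Ppp2ca, the driver of any recombinase, or the age and strain of the mice, and an acetylation peak list does not check a deletion. No label carries an animal number, so p-values measure only the spread between these libraries.

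Hematopoietic stem cells of the mouse are sorted as cells that lack lineage markers and carry Kit and Ly6a (Sca-1), and within that gate the long-term repopulating cells carry Slamf1 (CD150) and Procr (EPCR) and lack Cd48, while Cd34 rises as cells leave the most primitive state. Kit binds stem cell factor and Tek binds angiopoietins, both made by niche cells. H3K27ac lies on active promoters and enhancers, and a called peak is a place that the authors' list scored above the local background in that library. Of the 122 peaks in the windows, 42 had a q-value up to 0.05, 9 of 53 in the wild type and 33 of 69 in the knockout. The other peaks are thus not shown to be above background. A fold given below is the authors' fold at the peak summit over that background, and a rank percentile places the peak in its own library, with 0 the strongest.

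Wild-type lists held 21917 to 29945 peaks over 7.22 to 9.56 Mb of the main chromosomes, and knockout lists 34016 to 50453 peaks over 14.5 to 22.7 Mb. Read totals are not in the lists. The fragments piled up at each summit were recovered from the fold and the p-value, and the median was 5 in each wild-type library and 6, 6 and 9 across knockout replicates 1 to 3, so most peaks rest on few fragments. The labelled cell type was compared with marker genes, beside a background in which wild-type libraries marked a mean of 27.5% of all protein-coding genes at a gene end and knockout libraries 42.0%. Of 12 stem cell transcription factor genes, 3, 2 and 5 had a peak within 1000 bp of a gene end across wild-type replicates 1 to 3 and 3 in each knockout library. Hlf, Mecom, Gata2, Mycn, Hoxa9, Erg and Gfi1b had none in any library, while Runx1 and Tal1 had one in all 6. Erythroid marker genes were marked at a mean of 2.67 of 7 in the wild type and 5 in the knockout (2 to 3 and 4 to 6 by library), with Klf1 in all 6. Myeloid marker genes were marked at 3 of 9 in each wild-type library and at 3 to 7 per knockout library, with Csf1r in all 6. Lymphoid genes were marked at 0 to 2 of 8 per wild-type library and 0 to 3 per knockout library, and mast cell genes at 0 to 1 of 5 in both genotypes. Endothelial and stromal genes were marked at 1 and 2 of 7 in every wild-type and every knockout library, with the endothelial receptor gene Kdr knockout-only, as were 8.1% of the genes marked in any library. The best Kdr gene-end peaks ranked only at percentile 45.1, 97.0 and 35.9 across knockout replicates 1 to 3. Cdh5, Emcn, Col1a1, Cxcl12 and Lepr had no gene-end peak in any library. Nor had Alas2 (erythroid), Elane and Ly6g (myeloid), Pax5, Cd3e, Cd3g and Cd2 (lymphoid), or Mcpt4 and Fcer1a (mast cell). In the weakest library the best gene-end peak ranked at percentile 40.8 for Runx1, 42.2 for Tal1, 77.5 for Klf1 and 90.0 for Csf1r. The part of other cell types in the results below was not tested, and in such bulk samples fewer cells of a type and less mark per cell cannot be told apart.

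A peak within 1000 bp of either gene end was found at 1, 2 and 2 of the 8 genes across wild-type replicates 1 to 3 and at 3, 1 and 1 across knockout replicates 1 to 3, a mean of 1.67 in both genotypes. Over all protein-coding genes the share with such a peak was 27.5% ± 2.05 among wild-type libraries and 42.0% ± 2.35 among knockout libraries (SD, n = 3 each). No member had a gene-end peak in every library of one genotype and none of the other, against 8.1% knockout-only among the 11084 genes marked in any library. The gene-end peaks belonged to Cd48 (2 wild-type and 3 knockout libraries), Kit (2 and 1), Procr (0 and 1) and Fgd5 (1 and 0). Tek, Cd34, Slamf1 and Ly6a had none.

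The windows held 122 peaks over the 6 libraries, of which 12 lay at gene ends, 46 in gene bodies and 64 in flanks. By library there were 18, 21 and 14 in the wild type and 29, 20 and 20 in the knockout. Their bases summed to 5594, 7202 and 4750 bp across wild-type replicates 1 to 3 and to 12083, 6054 and 9157 bp across knockout replicates 1 to 3. The means were 5849 ± 1250 bp and 9098 ± 3010 bp (SD, n = 3 each), a ratio of 1.56, and the ranges overlapped because knockout replicate 2 lay below wild-type replicate 2. Peaks with a q-value up to 0.05 numbered 4, 3 and 2 in the wild type and 13, 7 and 13 in the knockout. Over the main chromosomes such peaks numbered 3635, 4678 and 3649 in the wild type and 22107, 16097 and 23714 in the knockout. The higher knockout count was thus found across the libraries and is not particular to these windows. Most of the peaks did not recur. When merged across libraries they formed 78 regions, of which 59 (75.6%) were found in 1 library and 3 in all 6; over the genome 73.5% of 104190 regions were found in 1 library and 5.27% in all 6. Of the 3 regions, 2 flank Ly6a and the other is at the start of Nr2c2, at the edge of the Fgd5 window.

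**Figure D1:**
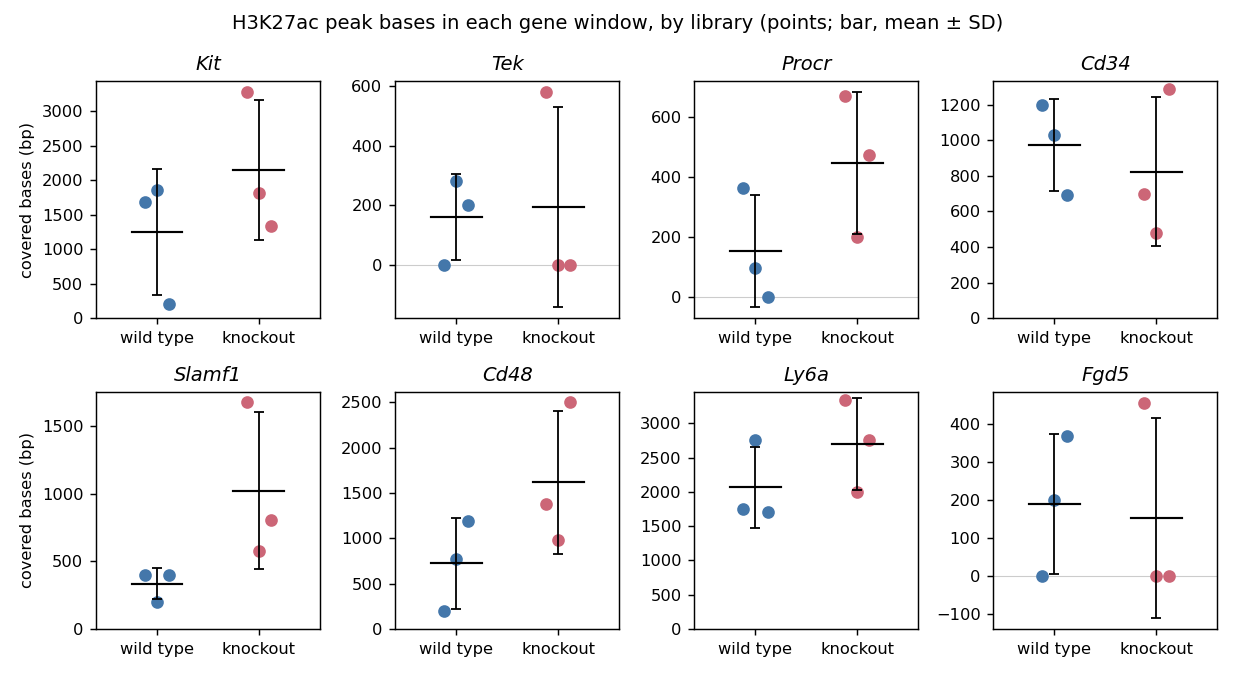
Bases covered by H3K27ac peaks in the window of each gene (vertical axis, bp, a separate scale for each gene) in the 3 wild-type (blue) and 3 knockout (red) libraries; points are libraries, the horizontal bar is the mean and the whisker 1 SD. Only the Slamf1 panel shows every knockout point (579 to 1678 bp) above every wild-type point (200 to 400 bp).

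Each gene was compared between genotypes on the bases covered in its window, by exact permutation (two-sided) of the genotype labels, which has 20 arrangements and cannot give a p below 0.1. The groups did not overlap, with the knockout higher, at 1 of the 8 genes, Slamf1, against 48.4% of the 18033 windows that held a peak. The share of members was thus below that of windows in general. By number of peaks every knockout library exceeded every wild-type one at 0 of the 8 genes, against 17.4% of windows. An unadjusted exact permutation p under 0.05 was found at 0 genes, because the design allows none. After Benjamini-Hochberg adjustment over all windows the smallest adjusted p for covered bases was 0.203, at Slamf1 (exact permutation p = 0.1). The median difference between genotypes was 462 bp over the members and 574 bp over all windows with a peak. Per kb of window the median was 5.11 bp in the wild type and 9.05 bp in the knockout for the members, against 4.49 and 15.1 bp for all windows with a peak.

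Kit, the receptor for stem cell factor and the marker that defines the progenitor gate, lies on chromosome 5 from 75574987 to 75656722 on the plus strand, in a window of 182 kb with no other protein-coding gene. Its window held 6, 7 and 1 peaks across wild-type replicates 1 to 3 and 11, 8 and 5 across knockout replicates 1 to 3. They covered 1686, 1866 and 200 bp in the wild type and 3287, 1821 and 1336 bp in the knockout. Wild-type replicate 3 was far below the others, and the remaining wild-type libraries lay inside the knockout range (1251 ± 914 against 2148 ± 1020 bp, SD, n = 3 each; exact permutation p = 0.5, adjusted p = 0.671). No peak overlapped the 300 bp around the transcription start in any library. The peaks nearest to the start had their summits 387, 835 and 661 bp downstream of it in wild-type replicates 1 and 2 and knockout replicate 1, on 5, 7 and 12 fragments. Knockout replicates 3 and 2 had their first peak 1308 and 3252 bp downstream, and wild-type replicate 3 at 16818 bp.

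The peaks of Kit were scattered through the gene and its downstream side, and none lay in the upstream 50 kb. Of its 29 regions, 23 were found in 1 library and none in more than 4. The region found in 4 libraries lay beyond the gene's 3' end, from 75671138 to 75671801, with peaks in wild-type replicate 2 and all 3 knockout libraries, at folds of 3.79, 4.21, 3.57 and 3.47. Another, from 75695004 to 75695471, was found in wild-type replicate 1 and knockout replicates 1 and 3, with folds of 4.49, 4.03 and 3.30. Inside the gene, summits fell 58763 bp from the start in wild-type replicate 1 at 57897 and 58429 bp in knockout replicates 2 and 3, and at 58238, 58721 and 59537 bp in knockout replicate 1, as neighbouring peaks that did not all overlap. The best-ranked Kit peak of a library stood at percentile 11.9, 21.0 and 39.5 in the wild type and 19.2, 51.1 and 33.1 in the knockout.

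Tek (Tie2), the angiopoietin receptor of endothelium and quiescent stem cells, lies on chromosome 4 from 94739086 to 94874976, plus strand. It was among the least covered members, at 0.877 bp per kb of window in the wild type and 1.06 in the knockout. Single peaks covered 281 and 200 bp in wild-type replicates 2 and 3, and 2 peaks covered 581 bp in knockout replicate 1; the other 3 libraries had none. All 4 peaks were in different places, none at a gene end, on 4 to 6 fragments. The genotypes overlapped (exact permutation p = 1.0, adjusted p = 1.0). Procr, which binds activated protein C and marks the most primitive cells, lies on chromosome 2 from 155751125 to 155755478, plus strand. Its window was covered over 364, 96 and 0 bp in the wild type and 672, 200 and 474 bp in the knockout (exact permutation p = 0.2, adjusted p = 0.338), with knockout replicate 2 below wild-type replicate 1. The groups no longer overlapped without wild-type replicate 1 (means 48 and 449 bp) or knockout replicate 2 (153 and 573 bp). Only that pair was out of order, so leaving out either library had to separate the groups. In 5 libraries the peak lay at the window's edge, within 1000 bp of an end of the neighbouring gene Edem2. The gene itself had 1 peak of 200 bp, just past its 3' end in knockout replicate 1 (155755527 to 155755726, 4 fragments), and knockout replicate 3 had a peak at 155743027 to 155743241 in the upstream flank.

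Slamf1 (CD150), a self-binding SLAM receptor carried by long-term stem cells, lies on chromosome 1 from 171767131 to 171801184, plus strand. Its window was covered over 400, 200 and 400 bp across wild-type replicates 1 to 3 and over 1678, 579 and 803 bp across knockout replicates 1 to 3. Every knockout library exceeded every wild-type one, with means of 1020 ± 581 against 333 ± 115 bp (SD, n = 3 each), a ratio of 3.06. The places were not the same. Of 12 regions, 11 were found in 1 library, and no peak of any library lay at a gene end. Each of the 3 knockout libraries carried a downstream flank peak, with summits 59550 to 60779 bp from the gene start (171827772 to 171828305, 171827639 to 171827893 and 171826262 to 171826864 in replicates 1 to 3). The first pair overlap and the third lies beside them, and no wild-type library had a peak there. They rested on 7, 5 and 7 fragments, and only that of replicate 1 had a q-value up to 0.05. No merged region of the window was found in all 3 knockout libraries. Over the genome, 2824 of 104190 regions were found in all 3 and in no wild-type library. With the flank shortened to 25 kb, which removes the downstream flank peaks of the knockout, the genotypes overlapped. As a share of all bases covered in its library, the Slamf1 window took 55.2, 20.9 and 55.4 bp per Mb in the wild type and 74.0, 39.9 and 41.1 in the knockout, and the groups overlapped (exact permutation p = 0.6).

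Cd48, the SLAM family ligand whose absence separates long-term stem cells from multipotent progenitors, lies on chromosome 1 from 171681245 to 171705258, plus strand, with its transcription start in the RefSeq promoter table at 171681992. It was the only member with a peak over the 300 bp promoter, in wild-type replicates 2 and 3 and in all 3 knockout libraries. The summit of the peak nearest the start lay 67 and 47 bp downstream of it in the wild type and 47, 64 and 62 bp downstream across knockout replicates 1 to 3. It was 576 and 200 bp wide in the wild type and 1037, 304 and 1166 bp in the knockout, on 8 and 8 fragments against 16, 12 and 25. The folds were 3.31 and 3.66 against 3.24, 3.39 and 4.13, so the knockout peaks were supported by more fragments at folds that overlapped the wild-type ones. Fragments and folds depend on the depth of each library, which is not given. Wild-type replicate 3 and knockout replicate 2 each had another gene-end peak, of 547 and 275 bp. The merged region at the start covered 0, 576 and 747 bp in the wild type and 1037, 579 and 1166 bp in the knockout. The genotypes overlapped there (exact permutation p = 0.2). Wild-type replicate 1 had no peak within 1000 bp of either end, and its nearest lay upstream, at 171674587 to 171674786.

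At Cd48 the gene-end peaks reached a q-value up to 0.05 in each knockout library and in no wild-type one, so at that threshold it was the single knockout-only member, against 29.0% knockout-only among 9365 genes marked at that threshold. Over the whole window the peaks covered 200, 776 and 1190 bp in the wild type and 1376, 979 and 2500 bp in the knockout. Knockout replicate 2 lay below wild-type replicate 3 (722 ± 497 against 1618 ± 789 bp, SD, n = 3 each; exact permutation p = 0.2, adjusted p = 0.338). Without knockout replicate 2 (1938 against 722 bp) or wild-type replicate 3 (1618 against 488 bp) the groups did not overlap. Only that pair was out of order, so leaving out either library had to separate the groups. A second site inside the gene, from 171686846 to 171687511, was marked in wild-type replicate 3 and knockout replicates 1 and 3.

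Promoter sequences were set beside these peaks because Cd48 was marked over its start while Kit and Fgd5, whose promoters are the richest of the members in CpG, were not. RefSeq promoters of GRCm38.p6 (250 bases before to 50 after the start, plus strand) were found for 7 of the 8 genes, not for Ly6a. The 3 below are chr1:171681742-171682041, chr5:75574737-75575036 (1 of 2 Kit starts, 4 bp apart) and chr6:91978715-91979014; the choice of Kit and Fgd5 was made after their values were seen. Capitals mark matches, on either strand, to the core letters of ETS sites (GGAAGT), RUNX sites (TGTGGT) and the GC box (GGGCGG). Sites of erythroid and stem cell GATA factors were searched as AGATAA and those of the AP-1 family as TGACTCA, with no match in these 3 sequences. The E-box (CANNTG) was searched and not put in capitals, because in the Cd48 promoter it overlaps the RUNX match.
Cd48: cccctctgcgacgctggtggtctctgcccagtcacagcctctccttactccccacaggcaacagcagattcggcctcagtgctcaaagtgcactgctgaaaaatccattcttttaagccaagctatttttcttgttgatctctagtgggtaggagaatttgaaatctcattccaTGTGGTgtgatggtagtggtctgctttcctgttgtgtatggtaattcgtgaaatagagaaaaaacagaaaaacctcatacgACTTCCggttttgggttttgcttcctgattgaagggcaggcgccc
Kit: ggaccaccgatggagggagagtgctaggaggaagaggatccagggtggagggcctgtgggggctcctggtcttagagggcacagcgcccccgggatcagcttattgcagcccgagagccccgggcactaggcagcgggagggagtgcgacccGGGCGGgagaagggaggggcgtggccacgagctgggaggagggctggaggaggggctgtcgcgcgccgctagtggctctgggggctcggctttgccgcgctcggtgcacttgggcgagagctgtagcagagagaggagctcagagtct
Fgd5: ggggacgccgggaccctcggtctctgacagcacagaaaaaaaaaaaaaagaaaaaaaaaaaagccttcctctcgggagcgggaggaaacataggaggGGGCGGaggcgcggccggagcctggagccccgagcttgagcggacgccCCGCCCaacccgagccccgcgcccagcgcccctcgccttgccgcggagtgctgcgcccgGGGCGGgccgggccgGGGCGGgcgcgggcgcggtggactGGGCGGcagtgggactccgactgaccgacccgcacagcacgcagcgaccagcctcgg
The Cd48 promoter held 7 CpG dinucleotides, with 1 ETS core match read on the opposite strand just past the start and 1 RUNX match upstream. These letters occur in 24.8% and 15% of 21262 promoters of protein-coding genes. The Kit promoter held 20 CpG and 1 GC box match and the Fgd5 promoter 37 CpG and 5 GC box matches, and GGGCGG occurs in 46.2% of promoters. Of promoters with at least 20 CpG, 69.5% had a peak in at least 1 library and 13.7% in all 6. Of those with 5 to 9 CpG, the shares were 25.8% and 3.01%. Cd48 was marked in 5 libraries, in the class with the lower shares. Kit and Fgd5 had no peak over theirs, in a class where most have one in at least 1 library but few in all 6. This contrast holds for a promoter that ends 50 bases past the start. Within 1000 bp of the start, Kit had a peak in wild-type replicates 1 and 2 and knockout replicate 1, and Fgd5 in wild-type replicate 3. The promoters of Procr (13 CpG), Cd34 (7), Slamf1 (4) and Tek (3) had no peak over them. A match to letters is a description and not a site of binding.

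**Figure D2:**
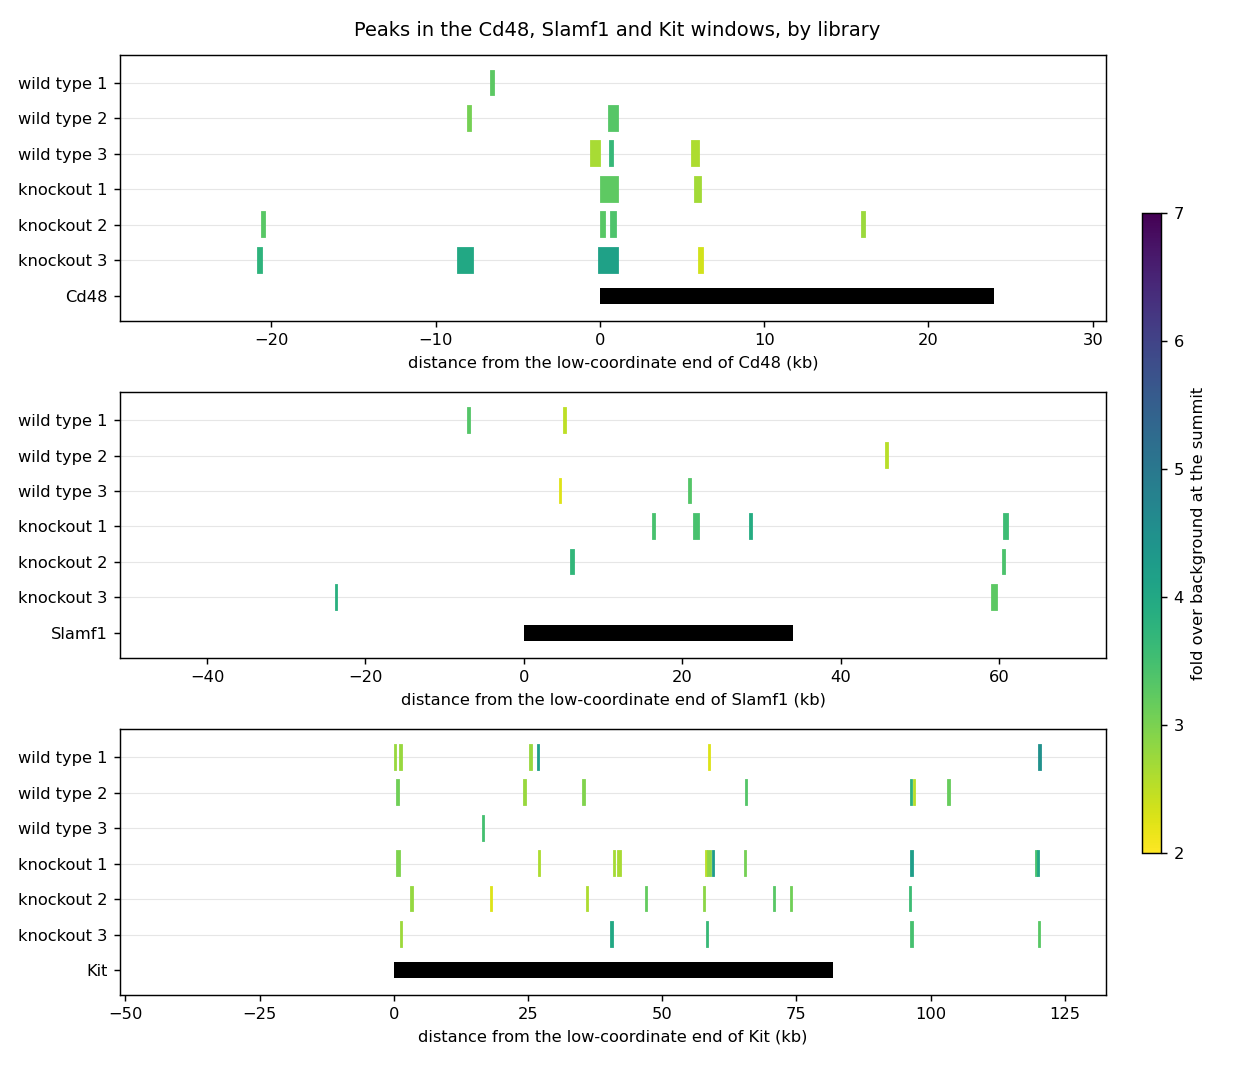
Peaks in the windows of Cd48, Slamf1 and Kit, 1 row per library; the horizontal axis is the distance in kb from the low-coordinate end of the gene (black bar), which is upstream for all 3, and colour is the authors' fold at the summit; bars carry a thin outline. Cd48 shows peaks at its start in 5 libraries, whereas those of Slamf1 and Kit are mostly in different places in each library.

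Cd34, a sialomucin of progenitors and endothelium, lies on chromosome 1 from 194938821 to 194961292, plus strand, in a window of 122 kb. Its window was covered over 1198, 1030 and 693 bp across wild-type replicates 1 to 3 and over 698, 480 and 1289 bp across knockout replicates 1 to 3, with overlapping ranges (974 ± 257 against 822 ± 419 bp, SD, n = 3 each; exact permutation p = 0.8, adjusted p = 1.0). The order of the means was not stable, at 994 bp in the knockout against 974 bp in the wild type without knockout replicate 2, and at 1235 against 1180 bp with a flank of 150 kb. No peak lay at a gene end. A region at -11037 to -10237 bp from the gene start, 194927784 to 194928584, was found in wild-type replicates 2 and 3 and knockout replicate 1, with folds of 3.61, 4.17 and 3.88. Downstream, 194995407 to 194995833, inside the long noncoding gene Gm32250, was found in wild-type replicate 2 and knockout replicates 2 and 3.

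Fgd5, an intracellular exchange factor for Cdc42 used as a stem cell reporter locus, lies on chromosome 6 from 91978827 to 92076005, plus strand. Its window was covered over 0, 200 and 368 bp in the wild type and 456, 0 and 1 bp in the knockout (exact permutation p = 1.0, adjusted p = 1.0). The 1 gene-end peak was 200 bp wide, its summit 800 bp past the transcription start in wild-type replicate 3, on 4 fragments. The 1 bp of knockout replicate 3, and the part of wild-type replicate 3 beyond its 200 bp gene-end peak, are the edges of peaks at the start of the neighbouring gene Nr2c2, a nuclear receptor gene. With peaks at other genes' ends left out, the Fgd5 means were 152 bp in the knockout and 133 bp in the wild type, the opposite order to that with them (152 and 189 bp). The Nr2c2 region (92091250 to 92093090) was found in all 6 libraries. In it the knockout libraries covered 1285, 932 and 1469 bp and the wild-type ones 343, 296 and 688 bp.

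Ly6a (Sca-1), a lipid-anchored surface protein that defines the stem cell gate and is induced by interferon, lies on chromosome 15 from 74994877 to 74998031, between Ly6i and Ly6c1. It had the most covered bases per length of the 8 windows, 34.1 bp per kb in the wild type and 44.5 in the knockout, and none of them within 1000 bp of the gene. Most of them lay in 2 regions found in all 6 libraries, and 5 further regions were found in 1 library each. The stronger shared region, from 74988167 to 74990175, lies at -6710 to -4702 bp from the gene's low-coordinate end and overlaps the pseudogene Gm8000. The other, from 75020946 to 75022013, lies 22915 to 23982 bp above its high-coordinate end. Both lie within the span of the long noncoding gene Gm28068. Members of the Ly6 family resemble each other in sequence, and the sources used here do not say how reads with several possible places were treated.

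At the region below Ly6a the strongest peak ranked at percentile 8.09, 6.76 and 9.02 across wild-type replicates 1 to 3 and at 0.717, 5.61 and 6.19 across knockout replicates 1 to 3. Its summit held 10, 11 and 11 fragments in the wild type and 39, 19 and 30 in the knockout, at folds of 4.37, 4.29 and 4.11 against 6.39, 4.72 and 4.68. Fragments and folds depend on the depth of each library, which is not given, so these values do not measure a difference between genotypes. The region below Ly6a was the highest-ranked place of all 8 windows in every library except wild-type replicate 2, where the region above Ly6a ranked at 6.60. Its peaks covered 1295, 1375 and 1299 bp in the wild type and 2000, 1437 and 1847 bp in the knockout, so every knockout library was wider (means 1320 and 1760 bp; exact permutation p = 0.1, the smallest possible). Of the 5490 regions found in all 6 libraries, 59.4% had every knockout library wider, so this order is common among shared regions. The region above Ly6a covered 451, 824 and 200 bp in the wild type and 903, 558 and 907 bp in the knockout and overlapped between genotypes (exact permutation p = 0.2).

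**Figure D3:**
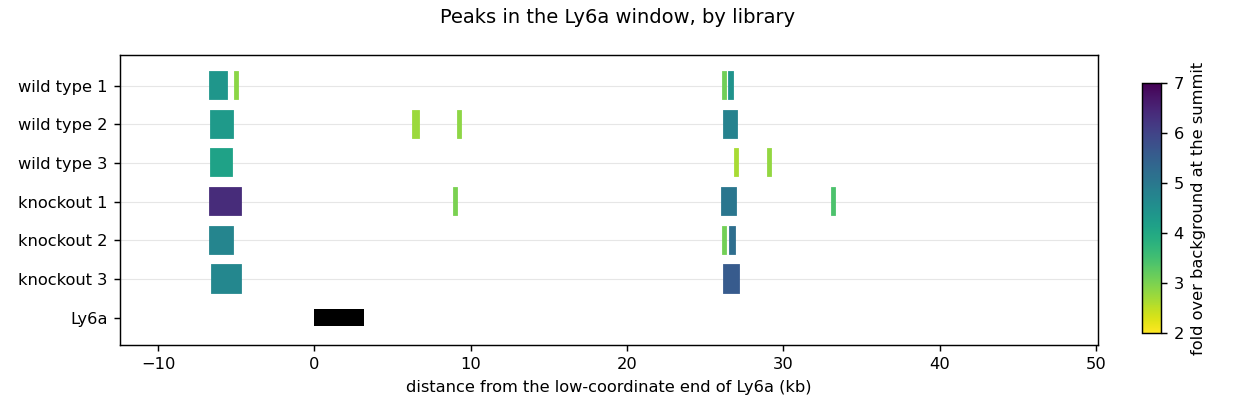
Peaks in the Ly6a window, 1 row per library; the horizontal axis is the distance in kb from the gene's low-coordinate end (black bar is the gene), and colour is the authors' fold at the summit. Both flanking regions recur in all 6 libraries, the one below the gene with its highest fold, 6.39, in knockout replicate 1.

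Over the whole Ly6a window the libraries covered 1746, 2753 and 1699 bp in the wild type and 3335, 1995 and 2754 bp in the knockout, with overlapping ranges (exact permutation p = 0.2, adjusted p = 0.338). They did not overlap without wild-type replicate 2 (1722 against 2695 bp) or knockout replicate 2 (2066 against 3044 bp). Only these replicates were out of order, so leaving out either library had to separate the groups. The order turned when the window was set against the rest of its library. Ly6a took 241, 288 and 235 bp per Mb covered across wild-type replicates 1 to 3 and 147, 137 and 141 across knockout replicates 1 to 3 (255 ± 28.9 against 142 ± 4.88, SD, n = 3 each), with no overlap (exact permutation p = 0.1, adjusted p = 0.56). Cd34 took 165, 108 and 96 bp per Mb against 30.8, 33 and 66 (123 ± 37.1 against 43.3 ± 19.7, SD, n = 3 each; exact permutation p = 0.1, adjusted p = 0.56). On this share the wild type was higher at these 2 of the 8 genes, against 5.96% of all windows, and the knockout at 0, against 11.9%. The knockout lists cover more of the genome, so a window whose bases stay level takes a smaller share. Summed over the 8 windows the share was 728 ± 61.1 bp per Mb in the wild type and 473 ± 58.1 in the knockout (SD, n = 3 each).

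**Figure D4:**
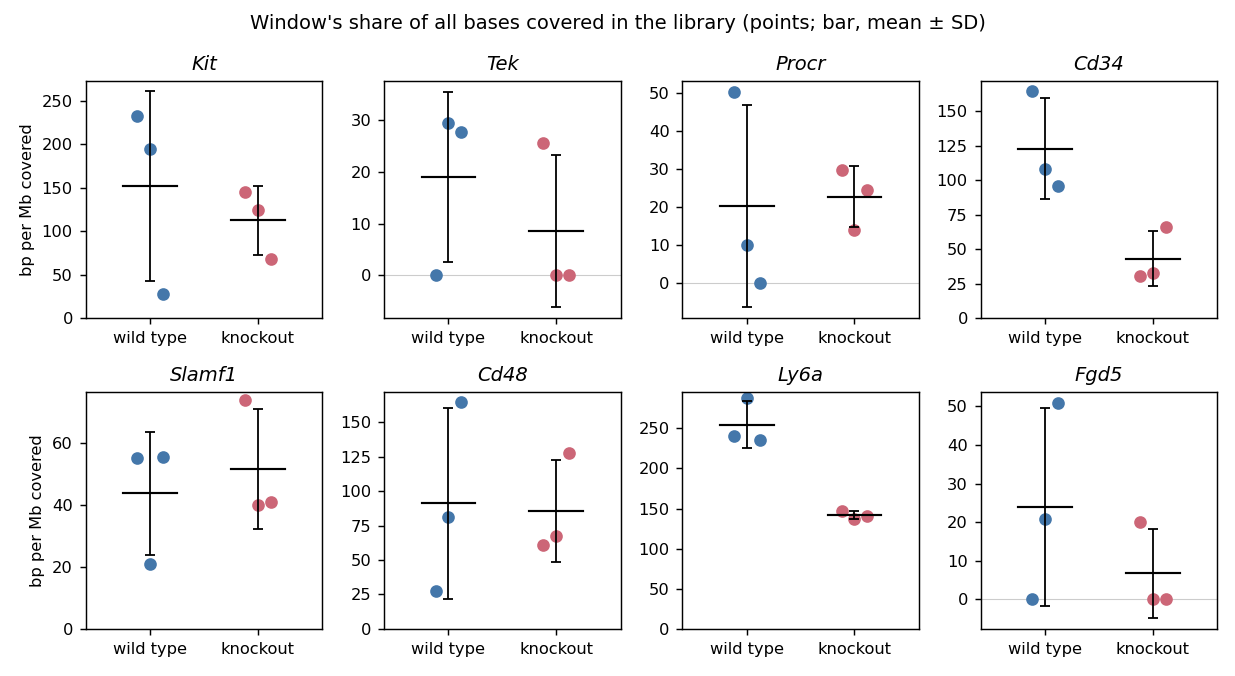
Bases covered in the window of each gene per Mb covered in the whole library (vertical axis, a separate scale for each gene) in wild-type (blue) and knockout (red) libraries; points are libraries, the horizontal bar is the mean and the whisker 1 SD. At Ly6a (235 to 288 against 137 to 147) and Cd34 (96 to 165 against 30.8 to 66) every wild-type point lies above every knockout point.

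With only the peaks whose q-value was up to 0.05, covered bases were higher in every knockout library at 3 of the 8 genes, Slamf1, Cd48 and Cd34, against 66.3% of 13731 windows. At Slamf1 and Cd48 no wild-type library had such a peak, and the knockout means were 446 and 1290 bp. At Cd34 the means were 573 and 140 bp. Summit fragments, on which q-values depend, were more numerous in the knockout, and their part in these counts was not tested. At that threshold a gene-end peak was left at 2, 1 and 1 members across knockout replicates 1 to 3 (Cd48 in each, and Kit in replicate 1) and at 0 in each wild-type library.

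The ranks of the peaks varied by gene. Over all 8 windows the median percentile was 63.3 for the 53 wild-type peaks and 51.0 for the 69 knockout peaks, and 4 and 3 of them were within the strongest 10% of their library. All 7 were Ly6a peaks. The best Tek, Slamf1 and Fgd5 peaks ranked at 30.5, 33.8 and 23.5, the last at the start of Nr2c2.

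**Figure D5:**
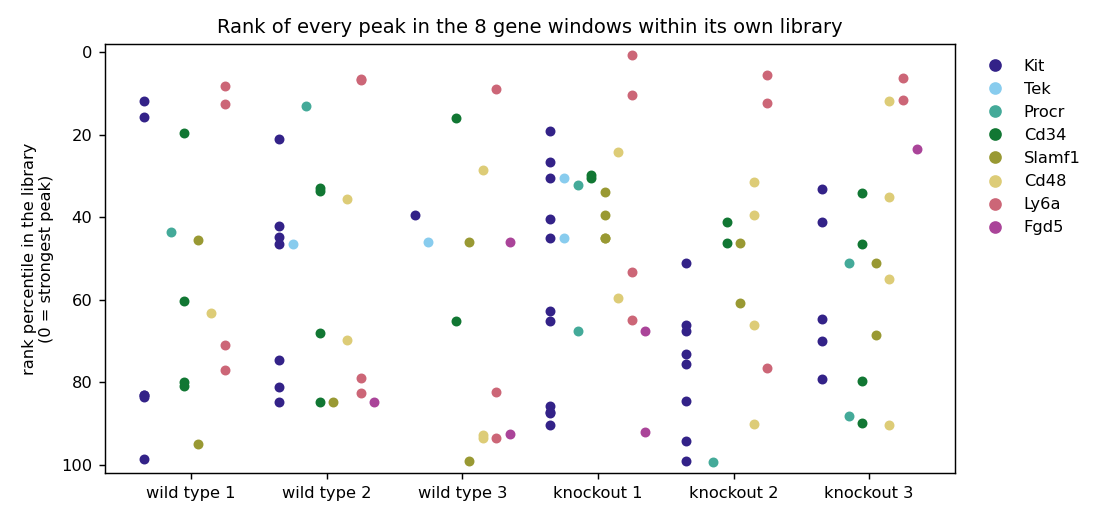
Rank percentile (vertical axis, 0 is the strongest peak of the library) of each of the 122 peaks in the 8 windows, by library (horizontal axis) and gene (colour). Ly6a peaks (rose) lead in every library, at 0.717 to 9.02 for the best of each.

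The genes that act with these receptors were described from lists of their ligands, partners and relatives. Over all protein-coding genes, a mean of 27.5% were marked at a gene end in wild-type libraries and 42.0% in knockout libraries. Of 18 ligand and partner genes, 7, 10 and 5 were marked at a gene end in the wild type and 10 in each knockout library, and none was marked in a single genotype only. The adaptor gene Gab2 and the Src family kinase gene Lyn were marked in all 6 libraries. The ligand genes Kitl and Angpt2, the Tek partner Tie1, Proc, Sh2d1a, Ptpn6 and Src had no gene-end peak in any. Of 7 other SLAM family genes, 1, 4 and 1 were marked in the wild type and 4, 3 and 3 in the knockout. Of 10 other Ly6 family genes, 1 was marked in each wild-type library and 3, 2 and 3 in the knockout. Ly6c2, a myeloid surface marker, was knockout-only, as were 8.1% of the genes marked in any library. Its best gene-end peaks ranked at percentile 34.3, 18.0 and 64.0 across knockout replicates 1 to 3. Away from the gene ends, peaks covered 2161, 2431 and 2090 bp of its window across wild-type replicates 1 to 3. Of 5 other Fgd genes, 0, 1 and 1 were marked in the wild type and 2 in each knockout library. Of 24 further stem cell surface genes, 6, 7 and 9 were marked in the wild type and 12, 10 and 9 in the knockout. The pan-leukocyte phosphatase gene Ptprc (CD45) and the costimulatory receptor gene Cd27 were marked in all 6, at percentile 2.07 to 4.97 and 4.55 to 13.8. Flt3, Esam and Prom1 were among those with no gene-end peak in any library. Covered bases were higher in every knockout library at 9 of 17, 3 of 6, 4 of 9, 3 of 5 and 11 of 23 genes with a window peak in these lists, and higher in the wild type at 0. These counts stand beside 48.4% over all windows and 1 of 8 among the receptors and markers.

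The genes whose covered bases over the 6 libraries were nearest to those of Ly6a, by Euclidean distance on log2(bp + 200), were Cycs (0.332), Trp53inp1 (0.446) and Clint1 (0.474). Cycs covered 1397, 2518 and 1817 bp in the wild type and 3300, 1880 and 2799 bp in the knockout.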

How the data were processed

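Peak lists were made by the authors from CUT&RUN reads. Trimmomatic, BWA, MACS2, deepTools, HOMER and ChIPseeker with GRCm38/mm10 are named, per the submitters' processing notes; the sources used here give no versions, parameters or control library. The peak names number 1 list per library. In the deposited lists the ratio is the fold at the summit over background, the −log10 p-value and the −log10 q-value are those of that summit, and the deposited score was not used. Fold, rank and q-value describe peaks within a list.

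Summit fragments were solved from fold = (pileup + 1)/(background + 1) and the Poisson tail p-value, with a whole-number solution within 0.002 for all 122 peaks. Gene spans came from RefSeq (GRCm38.p6), and places were gene end (within 1000 bp), body or flank. A neighbouring gene shortened a flank to no less than 1000 bp. The exact permutation test was run on all 18033 windows with a peak and adjusted by Benjamini-Hochberg; a group was called higher where all its libraries exceeded all others. The members and lists were chosen with earlier results of these data known. All members are named; of each list, genes marked in 1 genotype only are named, or else up to 2 marked in all 6 libraries, besides some without any gene-end peak, which were named after their values were seen. The counting was checked against direct counts in the real lists at randomly chosen genes. The calls and the permutation test were tried on shuffled window values with bases added at some genes. Alternatives were other windows, flanks, overlaps and q thresholds, equal list lengths, blocking on the replicate number and omitting each library in turn. Transcription starts in place of gene ends, leaving out peaks at other genes' ends, and leaving out Ly6a are alternatives chosen after seeing the data. Python 3.11.15, numpy 2.4.6, pandas 2.3.3, scipy 1.17.1 and matplotlib 3.10.9 were used.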

Additional observations from a re-analysis of the deposited data

How the results depend on the processing

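Leaving out each library in turn, the number of members with more covered bases in every knockout library ranged from 1 to 4 (main value 1), by number of peaks from 0 to 1 (main 0) and by share from 0 to 1 (main 0). With a library left out fewer orders have to hold, and no share over all windows stands beside these counts. Slamf1 kept its order in all 6 of these runs and in 10 of 14 settings in all. It lost it with a flank of 25 kb, with equal list lengths, with a −log10 q of at least 5, where Ly6a was the member called (2064 against 0 bp), and with the gene span alone, where Cd48 was (1167 against 414 bp). Without wild-type replicate 1 or knockout replicate 2, Procr joined it; without wild-type replicate 2 or knockout replicate 2, Ly6a did; and without wild-type replicate 3 or knockout replicate 2, Cd48 did. By number of peaks Cd48, Procr and Kit were each higher without knockout replicates 1, 2 and 3, in that order. By share Procr was higher without wild-type replicate 1. The higher wild-type share of Ly6a held in all 10 alternatives in which the share was computed by gene. That of Cd34 held in 9, the exception being the looser q-value threshold. The share was not computed with a −log10 q of at least 5. There the mean covered bases of Ly6a were 2064 bp in the knockout and 0 bp in the wild type. A higher wild-type share of Ly6a was thus not possible at that threshold. Without wild-type replicate 1 Tek and Fgd5 joined Ly6a and Cd34 in having a higher wild-type share, and without wild-type replicate 3 Kit did.

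With q-values up to 0.05 the knockout minus wild-type difference in members marked at a gene end was 1.33 (main 0), knockout-only members numbered 1 (main 0), members with more covered bases 3, with more peaks 3 and with a larger share 2, and the ratio of summed bases was 3.03 (main 1.56). That ratio was 1.14 with equal list lengths and 1.3 to 1.82 when each library was left out. The mean of Fgd5 kept its lower order in the knockout in 7 of 14 settings and that of Cd34 in 10. Equal list lengths, and a flank of 25 kb, left 0 members with more covered bases, a flank of 150 kb gave 2 with more covered bases and 1 with more peaks, and flanks not cut at the next gene gave 4. Uncut flanks take in neighbouring genes, and the Fgd5 means became 1794 bp in the knockout and 652 bp in the wild type. Shares over all genes are given only for the main setting and, at the q-value threshold, for covered bases and gene-end peaks. The other counts of members have no such share beside them and are not results about the members. Deviations of same-numbered libraries correlated between -0.0247 and -0.000998 over 3 pairs, and 0 of the 6 libraries correlated best with its own number. Differently numbered libraries correlated between -0.0147 and 0.0211. With all values this small, no pairing by number was seen, and the correlations cannot show that there was none. Under the replicate block, read as the knockout above the wild type in each same-numbered pair, 3 members had more covered bases, 2 more peaks and 0 a larger share. The causes of these shifts were not tested. Most peaks rest on few fragments, so absence of a peak means that the mark was not detectable at this depth.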
